A study of Mus musculus with 9 samples.

Results

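Livers of 3 female MRL +/+ mice given dichloroacetic anhydride (DCAA) were compared with livers of 2 mice given corn oil alone, the arrays labelled control 1 and control 3. These are 5 of the 9 arrays of the series, and they were chosen by their labels, with 1 corn oil array (control 2) left out because its profile was that of kidney. All mice were MRL +/+ females of 11 weeks at death, a strain prone to autoimmune disease. DCAA mice received 0.2 mmol/kg of the compound by intraperitoneal injection, in 100 µl of corn oil, 2 times a week over 6 weeks from an age of 5 weeks. They were killed 24 h after the final injection. The sample labels call the control mice untreated, and the design text gives them corn oil. The other compound of the study, dichloroacetyl chloride (DCAC), was given at the same molar dose on the same schedule to 3 mice, whose arrays entered the same statistical model and are printed beside the DCAA values. Each array holds the RNA of 1 liver and reports, for each probe set (a group of short probes against 1 transcript), a signal in arbitrary units.

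DCAA is an acylating agent: it transfers a dichloroacetyl group to amino and hydroxyl groups, and in water it breaks down to dichloroacetic acid. Dichloroacetate inhibits the pyruvate dehydrogenase kinases and is metabolised by glutathione transferase zeta, the product of Gstz1. The liver answers interleukin-6 and interleukin-1 with the acute phase response, in which hepatocytes, through the transcription factors STAT3 and NF-kappaB, make more serum amyloid A, orosomucoid and other plasma proteins. Metallothioneins, small cysteine-rich proteins that hold zinc and copper, are induced through the metal-sensing factor MTF1 and also during the acute phase response.

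The arrays were first checked against liver markers. The summed signal of 15 hepatocyte markers was 475945 and 487111 on controls 1 and 3, 592944 to 647758 on the DCAA arrays and 473539 to 614490 on the DCAC arrays, but 34935 on control 2. Kupffer cell and macrophage markers (16 genes) summed to 13851 on control 1, 46459 on control 3 and 20260 to 20405 on the DCAA arrays. In whole liver, fewer cells of a type and less RNA per cell cannot be told apart. Control probe sets for pyruvate carboxylase give a 3'/5' signal ratio, which rises when labelled RNA is short. It was 3.93 and 3.32 on controls 1 and 3, 6.43, 8.38 and 10.9 on DCAA 1 to 3, and 2.85, 3.99 and 12.8 on DCAC 1 to 3. This ratio was thus higher on every DCAA array than on either corn oil array. The 123 brightest genes, the top 1%, were ranked by mean log2 signal over the 8 arrays, treated ones included. Their median log2 signal was 0.39, 0.30 and 0.29 above the corn oil mean on DCAA 1 to 3. It was 0.03, 0.21 and 0.37 above that mean on DCAC 1 to 3. Over all genes the median change with DCAA was 9.1e-05, so small gains of very bright genes in the lists below are read beside that shift, and its cause was not tested.

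The comparison asked which liver transcripts differ after repeated DCAA. Of 24531 probe sets tested, for 12293 genes, 17 were higher and 3 were lower with DCAA at a limma adjusted p under 0.05. This is 0.0815% of the probe sets in both directions, 0.0693% higher and 0.0122% lower. The 20 probe sets belong to 16 named genes, and 1 of them carries no single gene symbol. The 13 genes that rose were 6 acute phase proteins (Saa1, Saa2, Lcn2, Orm2, Lrg1 and Apcs), the metallothioneins Mt1 and Mt2, the chemokine Cxcl1, the lipase inhibitor Angptl4, the methyltransferase Nnmt, the FOXO target Depp1 and Mmd2. The 3 genes that fell were the monocarboxylate transporter Slc16a1, the zinc transporter Slc39a7 and the spermidine synthase Srm. At an unadjusted p under 0.05 there were 3086 probe sets.

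**Figure D1:**
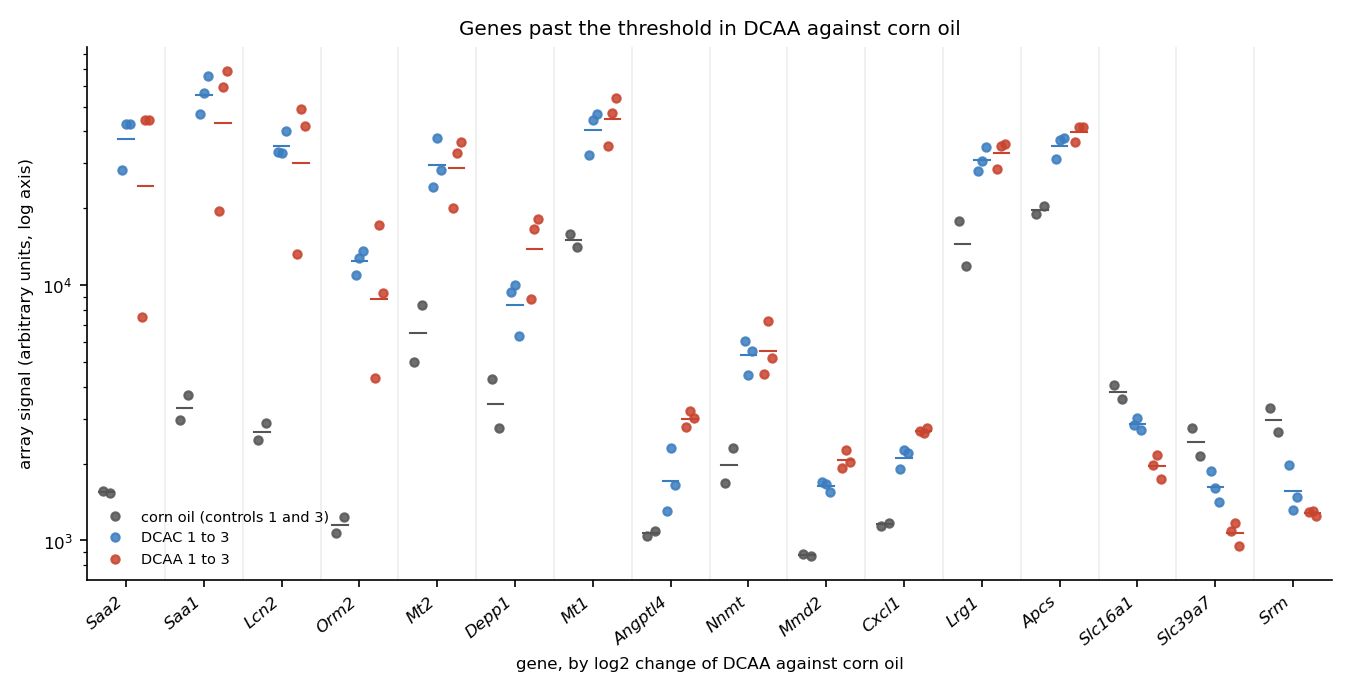
Signal of the 16 genes past the threshold on each array, on a log axis in arbitrary units. Points are arrays and short bars are geometric means for corn oil (controls 1 and 3), DCAC and DCAA. DCAA 1 is the lowest of the 3 DCAA arrays for Saa2, Saa1, Lcn2 and Orm2, and the corn oil and DCAA points of a gene do not overlap.

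The serum amyloid A genes had the largest changes among the 16. Saa2 encodes a lipoprotein-bound acute phase protein. Its signal was 1557 and 1541 on controls 1 and 3, and 7524, 44147 and 44319 on DCAA 1 to 3. Its log2 change was 3.98 ± 0.57 (SE), or 15.8-fold (limma adjusted p = 0.0227). Saa1, its neighbour of near-identical sequence, read 2954 and 3699 with corn oil and 19481, 59707 and 68791 with DCAA. Its log2 change was 3.70 ± 0.40 (limma adjusted p = 0.00586), and a less bright Saa1 probe set gave 3.50 ± 0.29 (limma adjusted p = 0.000881). On DCAA 1 both genes were well below the other 2 DCAA mice and still above both corn oil mice. The probe sets of Saa1 and Saa2 may share transcripts, so the genes were not taken as separate observations.

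The regions before the start sites of Saa1 and Saa2 are shown because both genes moved together. Over 250 bases before the start, the RefSeq promoters (GRCm38.p6) aligned with 94.8% identity, with 238 identical positions, 11 mismatches and 2 gap positions. The last 120 bases before each start follow, 5′ to 3′, with bases that differ between them in capitals. Saa1 lies at chr7:46742981-46743100 on the minus strand and Saa2 at chr7:46751713-46751832 on the plus strand.
Saa1: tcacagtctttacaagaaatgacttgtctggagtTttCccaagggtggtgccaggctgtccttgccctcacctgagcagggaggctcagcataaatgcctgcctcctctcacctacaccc
Saa2: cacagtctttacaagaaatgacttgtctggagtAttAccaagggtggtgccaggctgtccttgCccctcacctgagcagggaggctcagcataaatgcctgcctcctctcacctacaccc
In these windows Saa1 has 2 and Saa2 has 3 capitals, 1 of them an added base.

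Lcn2 encodes lipocalin-2, which binds bacterial siderophores and is made by hepatocytes and neutrophils. It read 2465 and 2875 with corn oil and 13245, 49003 and 42023 with DCAA, a log2 change of 3.50 ± 0.41 (limma adjusted p = 0.00885). Orm2 encodes orosomucoid, a carrier of basic compounds in plasma. It read 1067 and 1232 with corn oil and 4314, 17238 and 9345 with DCAA (log2 change 2.95 ± 0.40, limma adjusted p = 0.015). For both genes DCAA 1 was again the lowest treated array. Lrg1, a secreted leucine-rich glycoprotein, read 17771 and 11881 against 28533, 35164 and 35553, a log2 change of 1.18 ± 0.19 (limma adjusted p = 0.0472). Apcs encodes serum amyloid P, the main acute phase pentraxin of the mouse. It read 18992 and 20456 against 36313, 41769 and 41644, a log2 change of 1.01 ± 0.15 (limma adjusted p = 0.0227). Both of these started from a high signal with corn oil, and their 3 DCAA arrays lay close together. DCAA 1 was the lowest of the DCAA arrays for 12 of the 13 genes that rose.

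Of 37 acute phase plasma proteins listed, 33 had a probe set and 32 passed the filter on low signal. Of the 32, 6 rose and 0 fell. By their brightest probe sets, 12 of all genes tested were called higher (0.0976%) and 3 lower (0.0244%). In 25 of the 32 every DCAA array was above both corn oil arrays and in 2 every DCAA array was below, beside 17.1% and 15.5% of all genes. Their median log2 change was 0.44. Haptoglobin (Hp), which binds free haemoglobin, read 26984 and 32791 with corn oil and 51613, 54761 and 60669 with DCAA (log2 change 0.90 ± 0.17, limma adjusted p = 0.0938). Its groups did not overlap, and it did not pass. Saa3, the serum amyloid A of macrophages and fat, read 343 and 640 against 1133, 1899 and 4432 (2.18 ± 0.43, limma adjusted p = 0.111). Saa4, the constitutive member of the family, had a log2 change of 0.45 ± 0.14 (limma adjusted p = 0.239). Log2 changes were 0.76 for Orm1, 0.93 for Orm3, 0.83 for the protease inhibitor Serpina3n, 0.76 for Itih4 and 0.75 for ceruloplasmin (Cp), with limma adjusted p-values of 0.163, 0.16, 0.145, 0.121 and 0.195. A2m, the protease inhibitor alpha-2-macroglobulin, had the lowest value of the list, -1.25 ± 0.60, from signals of 330 and 418 with corn oil and 67.2, 266 and 215 with DCAA. It turned to 0.15 in a fit that blocked on 3'/5' ratio class (above or below the largest gap). The high class held DCAA 1 to 3 and DCAC 3, and the low class controls 1 and 3 and DCAC 1 and 2. Class and DCAA therefore coincide against corn oil, and the block is set by DCAC 3 against DCAC 1 and 2 alone. Values from this fit cannot tell DCAA from the ratio.

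The signalling genes upstream of this response did not pass. Of 29 genes of interleukin-6 and interleukin-1 signalling, 24 were tested and 0 were called; 10 had positive and 14 negative log2 changes, with a median of -0.05. Nfkbia, the inhibitor that NF-kappaB itself induces, read 6013 and 8347 with corn oil and 12104, 10149 and 13877 with DCAA (0.75 ± 0.22, limma adjusted p = 0.221). The log2 changes of the interleukin-1 receptor Il1r1, the shared receptor chain Il6st and Stat3 were 1.15, 0.53 and 0.44. Stat3 had -0.32 with the ratio class block. Promoter motifs of the acute phase genes are a description of sequence only. The paired STAT half-sites TTCNNNGAA, on either strand, occurred in 1 of the 13 called genes with a RefSeq promoter entry and in 7.02% of all 32851 promoter windows. That gene was Apcs, at base 244 before the start, and the window chr1:172895255-172895304 (minus strand, GRCm38.p6) is shown 5′ to 3′ with the match in capitals.
Apcs: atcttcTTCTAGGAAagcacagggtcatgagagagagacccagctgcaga
Angptl4, Nnmt and Srm had no entry. A CCAAT box was present in 2 of the 13 beside 33.8% of all windows, and the TATA sequence TATAAA in 1 (Orm2) beside 12.4%, both on either strand.

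Other abundant plasma proteins of hepatocytes had smaller positive log2 changes and did not pass. Of 13 negative acute phase proteins tested, 0 were called and the median log2 change was 0.36. On every array 11 lay above and 1 below corn oil, beside 17.1% and 15.5% of all genes. The same shares stand beside the other such counts of this paragraph. Albumin (Alb) read 43840 and 45064 with corn oil and 64622, 56478 and 65450 with DCAA, a log2 change of 0.48 ± 0.16 (limma adjusted p = 0.268). Transthyretin (Ttr), the carrier of thyroid hormone, changed by 0.44 ± 0.16 on the same scale (limma adjusted p = 0.282), and Fetub, a protease inhibitor, by 0.74 ± 0.19 (limma adjusted p = 0.188). The 38 complement and coagulation genes tested had a median of 0.29, with 25 above and 1 below corn oil on every array and 0 called. C8a and C9, subunits of the membrane attack complex, had values of 0.89 ± 0.16 (limma adjusted p = 0.085) and 0.80 ± 0.16 (limma adjusted p = 0.105). Among 19 apolipoproteins the median was 0.31, and 15 were higher and 1 lower on every DCAA array. Apom, which carries sphingosine 1-phosphate, was that lower one, at 7214 and 7344 with corn oil and 6820, 4876 and 2762 with DCAA. Hepatocyte markers, 15 tested, had a median of 0.34 with 10 above corn oil on every array. These medians lie at or near the 0.32 of the 123 brightest genes, of which 117 were higher with DCAA than with corn oil. That nearness may be partly built in. The ranking of the 123 included the treated arrays, and list members were not left out of it. DCAC 3, which shares the high 3'/5' ratio, read 62207 for Alb, against 43741 and 52976 on DCAC 1 and 2. In the fit that blocked on 3'/5' ratio class, the median log2 change was 0.11 for the negative acute phase proteins, 0.14 for complement and coagulation, 0.05 for the apolipoproteins and 0.11 for the hepatocyte markers, while that of the acute phase proteins was 0.50. That block subtracts, for each gene, the difference of DCAC 3, 1 mouse, from DCAC 1 and 2. Under quantile normalization the hepatocyte median was -0.01.

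**Figure D2:**
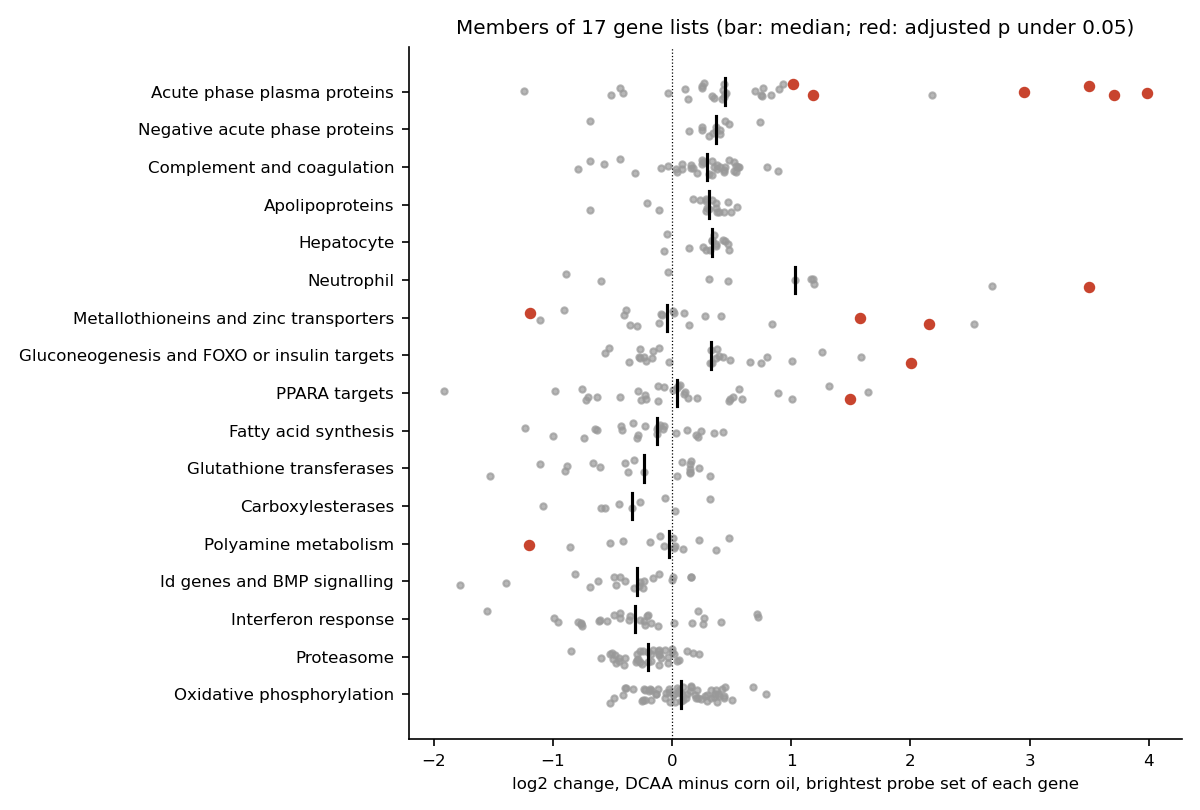
Log2 change, DCAA minus corn oil, of the members of 17 gene lists, 1 point per gene by its brightest probe set. Bars are medians and red points passed the threshold. The acute phase list holds 6 red points, and the medians of the secreted protein lists lie between 0.29 and 0.44.

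Both liver metallothioneins rose. Mt2 read 5010 and 8386 with corn oil and 19997, 32964 and 36480 with DCAA, a log2 change of 2.15 ± 0.28 (limma adjusted p = 0.0124). Mt1 read 15878 and 14084 against 35130, 47265 and 53875, a log2 change of 1.58 ± 0.20 (limma adjusted p = 0.0124). No DCAA array overlapped corn oil for either gene. A dimmer Mt1 probe set gave 3.09 ± 0.31 (limma adjusted p = 0.00372), from 192 and 357 with corn oil and 1857, 2240 and 2635 with DCAA, so the size of the Mt1 change depends on the probe set. The motif TGCNCNC, searched on either strand as a loose form of the metal response element core, is common. It is held by 44.4% of all promoter windows of 250 bases and by 10 of the 13 called genes with an entry. Whether its matches bind MTF1 was not tested. The Mt2 promoter holds 5 matches, a number reached by 0.344% of all windows, and Mt1 holds 1. The Mt2 window is shown for these matches, in capitals, at chr8:94172388-94172577 on the plus strand of GRCm38.p6.
Mt2: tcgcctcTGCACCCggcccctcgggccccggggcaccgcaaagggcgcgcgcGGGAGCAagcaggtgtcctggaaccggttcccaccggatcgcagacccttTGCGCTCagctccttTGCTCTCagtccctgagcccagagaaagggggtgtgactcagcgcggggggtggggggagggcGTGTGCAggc

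Among the zinc transporters, 1 passed. Slc39a7 (ZIP7), which releases zinc from the endoplasmic reticulum, fell: it read 2766 and 2143 with corn oil and 1093, 1173 and 947 with DCAA, a log2 change of -1.19 ± 0.19 (limma adjusted p = 0.0476). Of the 23 metallothionein and zinc transporter genes, 20 were tested; 2 rose and 1 fell, with a median of -0.04. Slc30a1, which exports zinc from the cell, read 2107 and 1795 against 906, 823 and 989 (-1.11 ± 0.27, limma adjusted p = 0.173). Slc30a10, a manganese exporter of the same family, had a log2 change of -0.91 ± 0.21 (limma adjusted p = 0.163). Mtf1 read 512 and 531 with corn oil and 873, 998 and 931 with DCAA (0.84 ± 0.22, limma adjusted p = 0.193). The groups did not overlap for these 3 genes, and none of them passed. Slc39a5, a zinc importer, was dim, at 60.7 and 65.2 against 450, 346 and 308 (2.53 ± 0.73, limma adjusted p = 0.21). Among iron genes, the transferrin receptor Tfrc had a log2 change of -1.21 ± 0.28 (limma adjusted p = 0.163) and hepcidin (Hamp), the hormone that limits iron export, one of -0.44 ± 0.33.

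Cxcl1, a chemokine that attracts neutrophils, rose. Its brightest probe set read 1138 and 1173 with corn oil and 2674, 2638 and 2769 with DCAA, a log2 change of 1.22 ± 0.15 (limma adjusted p = 0.0124). The DCAA mice were nearly alike here. A second probe set gave 1.64 ± 0.22 (limma adjusted p = 0.0149) and another 0.80 ± 0.20 (limma adjusted p = 0.165). The kappaB motif (GGG, any 2 bases, then TTTCC), on either strand, was found in 1.41% of all promoter windows and in 1 of the 13 called genes. That gene was Cxcl1, with 2 matches, which 0.0244% of all windows reach. They are shown in capitals at chr5:90891145-90891194, plus strand, GRCm38.p6.
Cxcl1: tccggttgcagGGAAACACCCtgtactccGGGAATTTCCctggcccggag
Of 15 chemokines tested, 1 rose and the median log2 change was 0.04 (-0.08 with a common median). Cxcl10, induced by interferon, read 192 and 377 with corn oil and 741, 1116 and 287 with DCAA, so the groups overlapped (1.20 ± 0.47). Ccl5 and Cxcl9, which attract T cells, had log2 changes of -2.47 ± 0.74 and -1.37 ± 0.42. Ccl5 was dim, at 383 and 641 with corn oil and 153, 58.5 and 77.1 with DCAA. Its signal on DCAA 2 was raised to that array's 25th percentile, 60.5. For Cxcl9, control 3 stood high at 1589 against 514 on control 1 and 302 to 427 with DCAA.

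Neutrophil markers were tested as signs of infiltrating cells. Of 15 listed, 13 had a probe set and 11 were tested; 1 rose, which was Lcn2, and the median log2 change was 1.03. The 13 markers summed to 4912 and 5142 with corn oil and to 15713 to 52814 with DCAA. Without Lcn2 the sum was 2447 and 2266 with corn oil and 2468, 3811 and 5067 with DCAA, so most of the summed gain was that of Lcn2. Prtn3, a granule protease of neutrophil precursors, read 222 and 45 with corn oil and 590, 761 and 784 with DCAA (2.68 ± 0.44, limma adjusted p = 0.0521). Elane, another such protease, had a log2 change of 1.19 ± 0.38 and the calcium-binding S100a9 one of 1.16 ± 0.40, and neither passed. On every DCAA array 5 of the 11 lay above and 1 below corn oil, beside 17.1% and 15.5% of all genes. Of the 11, 8 had positive and 3 negative log2 changes. The negative ones were Csf3r, the receptor for granulocyte colony-stimulating factor, at -0.89 ± 0.39 (416 and 500 with corn oil, 365, 247 and 166 with DCAA), the gelatinase Mmp9 at -0.59 ± 0.57 and the granule protein Ngp at -0.03 ± 0.34, which turned to 0.17 without control 1, 0.13 without DCAA 1 and 0.18 without DCAA 2. Camp and Cxcr2 were below the filter on low signal, with at most 92.0 and 74.5 on the DCAA arrays. The part of neutrophils in the gain of Lcn2 was not tested.

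Interferon-induced genes and markers of cytotoxic cells did not pass, and control 3 was high for several of them. Of 30 interferon response genes tested, 0 were called and the median was -0.31. On every DCAA array 9 were below and 2 above corn oil, beside 15.5% and 17.1% of all genes. Igtp, an interferon-induced GTPase, read 2732 on control 1, 5308 on control 3 and 2030, 2545 and 2182 with DCAA. Its log2 change was -0.76 ± 0.23 (limma adjusted p = 0.231). Ifit3 and Tap1, which act against viral RNA and in antigen transport, had -1.55 ± 0.53 and -0.96 ± 0.28. Nkg7, a protein of cytotoxic granules, read 204 and 515 with corn oil and 81.5, 180 and 141 with DCAA. Of the 5 natural killer and cytotoxic markers tested, 0 were called, with 3 negative and 2 positive log2 changes. Ccl5, Nkg7 and the granzyme Gzma had -2.47, -1.35 and -0.72, each below corn oil on every DCAA array, while the receptor Klrk1 had 0.48 ± 0.46 and perforin (Prf1) 0.19 ± 0.40 with overlapping groups. Klrk1 had -0.13 without control 1, and Prf1 -0.099 without control 3 and -0.065 without DCAA 3. Control 3 was also high for macrophage markers, and without it the interferon median was 0.08.

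Angptl4, which inhibits lipoprotein lipase and is a target of the fatty acid receptor PPARA, rose. It read 1045 and 1089 with corn oil and 2779, 3209 and 3015 with DCAA, a log2 change of 1.49 ± 0.21 (limma adjusted p = 0.0227). The 3 DCAA mice were alike, and far above both corn oil mice. The related Angptl8, an insulin-induced lipase inhibitor, did not pass and read 4111 and 2302 with corn oil against 996, 1182 and 1504 (-1.35 ± 0.32, limma adjusted p = 0.163). Of 32 PPARA targets tested, 1 rose, 0 fell, and the median was 0.04 (-0.04 with quantile normalization and -0.07 with a common median), with 10 above and 7 below corn oil on every array (17.1% and 15.5% of all genes were so). Cyp4a14, a fatty acid hydroxylase often used as a PPARA marker, read 1331 and 1808 with corn oil and 411, 406 and 417 with DCAA (-1.91 ± 0.44, limma adjusted p = 0.163). Ehhadh, of peroxisomal oxidation, had a log2 change of -0.71 ± 0.24, and Cpt1a, which admits fatty acids to mitochondria, one of 0.48 ± 0.15. Ppara itself read 5184 and 4417 against 10835, 8778 and 9339 (1.01 ± 0.24, limma adjusted p = 0.165), and read 4895, 5115 and 9414 on DCAC 1 to 3. Fgf21, a hepatic fasting hormone, and Cidec, a lipid droplet protein, had 1.64 ± 0.69 and 1.31 ± 0.60 from dim signals.

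Fatty acid synthesis genes were on both sides of 0, with 7 positive and 17 negative log2 changes. On every DCAA array 3 lay above and 2 below corn oil, beside 17.1% and 15.5% of all genes. Of 24 tested, 0 were called and the median log2 change was -0.12. Srebf1, the transcription factor of lipogenesis, read 14055 and 10430 with corn oil and 6786, 5602 and 5806 with DCAA (-1.003 ± 0.18, limma adjusted p = 0.085). Pnpla3, a lipid droplet protein under its control, had -1.24 ± 0.36 (limma adjusted p = 0.212). Fasn, the fatty acid synthase, read 17511 and 10758 against 12265, 7248 and 6295, with overlapping groups. Scd1, the desaturase, and Elovl5, an elongase, had 0.43 ± 0.16 and 0.35 ± 0.13. Rxrg, a retinoid X receptor, read 500 and 653 with corn oil and 113, 128 and 220 with DCAA (-1.96 ± 0.37, limma adjusted p = 0.0965). The perilipin Plin5, which coats lipid droplets, had -0.76 ± 0.18 (limma adjusted p = 0.163).

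Depp1, an autophagy regulator induced by FOXO factors and repressed by insulin, rose. It read 4286 and 2750 with corn oil and 8816, 16511 and 18074 with DCAA, a log2 change of 2.01 ± 0.30 (limma adjusted p = 0.0303). DCAA 1 was the lowest treated mouse and still above both corn oil mice. A second probe set gave 1.43 ± 0.29 (limma adjusted p = 0.111). In the list of gluconeogenesis and of FOXO and insulin targets, 27 genes were tested. Of these 1 rose and 0 fell, with a median of 0.32. On every array 12 lay above and 1 below corn oil, beside 17.1% and 15.5% of all genes. Trib3, an inhibitor of the insulin-activated kinase Akt, read 285 and 272 against 733, 585 and 687 (1.26 ± 0.32, limma adjusted p = 0.186). Ppargc1a, a coactivator of gluconeogenesis, and Sesn3, a FOXO target, had 0.79 ± 0.20 and 0.74 ± 0.18. Igfbp1, repressed by insulin, read 3090 and 6132 with corn oil and 4260, 11538 and 13591 with DCAA, with overlapping groups. Insulin-like growth factor 1 (Igf1) had a log2 change of 0.54 ± 0.15 (limma adjusted p = 0.2), and Bcl6, a repressor in growth hormone signalling, one of 1.32 ± 0.35 (limma adjusted p = 0.195).

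Some clock genes had large log2 changes with wide errors, and 0 of 17 tested passed. Of the 17, 11 had positive and 6 negative log2 changes. On every DCAA array 6 lay above and 2 below corn oil, beside 17.1% and 15.5% of all genes. Clock and Arntl had -0.0032 ± 0.23 and -0.35 ± 0.38, with overlapping groups. Dbp, a clock output transcription factor, read 195 and 162 with corn oil and 2245, 565 and 783 with DCAA (2.49 ± 0.83, limma adjusted p = 0.262). It read 1090, 232 and 3404 on DCAC 1 to 3, so the treated mice spread widely in both groups. Blocking on 3'/5' ratio class, the Dbp value was -0.27, as was the median of the list, which was 0.28 without it. That block is set by DCAC 3, the highest of the DCAC arrays for Dbp, against DCAC 1 and 2. Per2 and Nr1d1, repressors of the clock, had 1.27 ± 0.30 and 1.44 ± 0.36 (limma adjusted p = 0.163 and 0.174). Npas2, an activator partner, read 293 and 278 with corn oil and 21.3, 50.8 and 42.8 with DCAA. Its DCAA signals lay under the 25th percentiles of their arrays (56.4, 60.5 and 67.3) and were raised to them. The size of its log2 change, -2.22 ± 0.73, is thus set by these raised values. Rgs16, a regulator of G-protein signalling that follows feeding time in liver, read 287 and 25.5 with corn oil and 2748, 955 and 1685 with DCAA (3.72 ± 0.63, limma adjusted p = 0.0616).

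Nnmt, which methylates nicotinamide with the methyl group of S-adenosylmethionine, rose. It read 1686 and 2310 with corn oil and 4490, 7214 and 5186 with DCAA, a log2 change of 1.48 ± 0.22 (limma adjusted p = 0.0276). The list of Nnmt and methionine cycle genes had 18 tested, Nnmt among them. No other was called, and the median was 0.07 (-0.13 with quantile normalization and -0.05 with a common median). Mmd2, a membrane protein of the PAQR family, rose by 1.23 ± 0.16 on 1 probe set (limma adjusted p = 0.0124), with 888 and 873 against 1921, 2262 and 2034. Its brightest probe set gave 0.87 ± 0.29 and did not pass. Srm, which makes spermidine from putrescine, fell: it read 3296 and 2649 with corn oil and 1298, 1305 and 1248 with DCAA, a log2 change of -1.20 ± 0.19 (limma adjusted p = 0.0476). Of 14 polyamine genes tested, Srm was the only one called, and the median was -0.03. Sat1, which acetylates spermidine and spermine for export, read 3246 and 3401 against 1905, 1916 and 1695 (-0.86 ± 0.16, limma adjusted p = 0.0938). Odc1, the first enzyme of the pathway, had -0.41 ± 0.22.

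Slc16a1 (MCT1), which carries lactate, pyruvate and ketone bodies, fell. It read 4056 and 3580 with corn oil and 1974, 2162 and 1734 with DCAA, a log2 change of -0.97 ± 0.16 (limma adjusted p = 0.0476). The groups were separated by more than their own spread. Of 22 monocarboxylate and amino acid transporters tested, 0 rose and 1 fell. Slc3a1, a chain of a cystine transporter, had a log2 change of 1.15 ± 0.20 and did not pass (limma adjusted p = 0.0832).

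**Figure D3:**
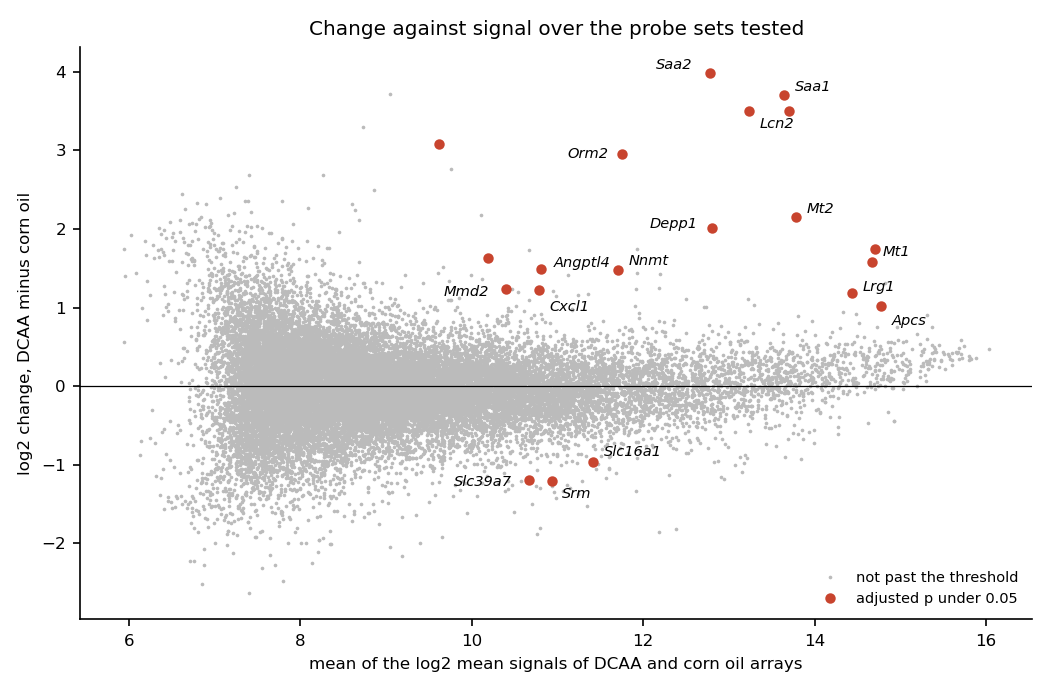
Log2 change, DCAA minus corn oil, against the mean of the log2 mean signals of both groups, 1 point per probe set. Red points passed the threshold, and 1 probe set of each of the 16 genes is labelled. Scatter widens toward low signals, and most of the brightest points lie above 0.

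Among genes that did not pass, those named on the lower side were Id3, Srebf1, Ik, Srrm1, Ces1d, Gstm3, Sec23b, Sat1, Rxrg, Bysl, Rassf5 and Actg1. Id3, an inhibitor of helix-loop-helix factors and a target of BMP signalling, read 1860 and 1588 with corn oil and 624, 545 and 820 with DCAA (-1.40 ± 0.23, limma adjusted p = 0.0593). Of 20 Id and BMP pathway genes tested, 0 were called, 12 were below and 0 above corn oil on every array, and the median was -0.30. Of all genes, 15.5% were below and 17.1% above in this way. Bambi, a decoy receptor, had -1.78 ± 0.60, the ligand Bmp6 had -0.82 ± 0.37 and the inhibitor Smad7 had -0.69 ± 0.28. Cytoplasmic gamma-actin (Actg1) read 7827 and 6926 against 4840, 2914 and 2686, a log2 change of -1.13 ± 0.22 (limma adjusted p = 0.109). Ik and Srrm1, which act in pre-mRNA splicing, had -0.95 ± 0.17 and -0.97 ± 0.18, and Sec23b, of the coat of export vesicles, had -1.04 ± 0.20. Bysl, of ribosome assembly, had -1.20 ± 0.23 and Rassf5, a Ras effector, -0.95 ± 0.19. The limma adjusted p-values of these 5 genes lay between 0.0884 and 0.105, and for Srrm1 the other 5 probe sets had values of -0.54 to -0.01.

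Glutathione transferases and carboxylesterases had 0 calls, and the medians of both families were below 0. Of 29 genes of cytochrome P450 families 1 to 3 tested, 0 were called, with 17 positive and 12 negative log2 changes. Of 19 glutathione transferases tested, 7 were below and 2 above corn oil on every DCAA array, beside 15.5% and 17.1% of all genes. The same shares stand beside the other such counts of this paragraph. The glutathione transferase median was -0.24, and 0.01 without DCAA 3. Gstm3 read 4513 and 5071 with corn oil and 2571, 2320 and 1828 with DCAA (-1.11 ± 0.21, limma adjusted p = 0.0938). Gsta2 and Gsta3 had -1.53 ± 0.45 and -0.90 ± 0.25. Of 9 carboxylesterases, which hydrolyse esters and amides, 3 were below and 1 above, with a median of -0.33. Ces1d read 12607 and 13856 against 7579, 6308 and 5065 (-1.08 ± 0.20, limma adjusted p = 0.0909). Of 41 proteasome genes tested, 0 were called, 19 lay below and 1 above corn oil on every array, and the median was -0.20; Psmd7, of the regulatory particle, had -0.85 ± 0.17 (limma adjusted p = 0.12). The stress chaperone Hspa1b had 1.73 ± 0.36 (limma adjusted p = 0.124), while Creld2, of the endoplasmic reticulum, had -1.21 ± 0.29.

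The genes tied to dichloroacetate itself did not pass. Gstz1 read 12138 and 14712 with corn oil and 13421, 13528 and 7991 with DCAA, with overlapping groups (-0.24 ± 0.22, limma adjusted p = 0.689). Of the pyruvate dehydrogenase kinases, Pdk4 read 830 and 756 against 270, 502 and 477 (-0.98 ± 0.34, limma adjusted p = 0.275), and its groups did not overlap. Pdk1 and Pdk2 had 0.04 ± 0.23 and 0.34 ± 0.23. Of 8 genes of tyrosine catabolism, the pathway in which Gstz1 acts, 0 were called and the median was 0.27. On every array 6 lay above and 0 below corn oil, beside 17.1% and 15.5% of all genes. Hpd, Qdpr, Fah and Hgd were bright, with mean corn oil signals of 17726 to 39615. The median of the 123 brightest genes was 0.32, and 117 of them were higher with DCAA. Hpd and Fah, the dioxygenase and last hydrolase of the pathway, had 0.44 ± 0.17 and 0.39 ± 0.15. Cyp2e1, a cytochrome P450 that oxidises small solvents, read 35223 and 38682 with corn oil and 50308, 50616 and 52719 with DCAA (0.47 ± 0.15, limma adjusted p = 0.235). This gene is also bright, so its value is read beside the same 0.32.

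DCAA and DCAC were then compared directly, at the same dose and time. Both carry the dichloroacetyl group; the leaving group is dichloroacetate in DCAA and chloride in DCAC. Of 24531 probe sets 1 passed, 0.00408%, with 2277 at an unadjusted p under 0.05. It was Dusp1, a phosphatase that switches off stress-activated kinases. Dusp1 read 5147, 4904 and 3748 on DCAA 1 to 3 and 1804, 1601 and 1360 on DCAC 1 to 3, a log2 difference of 1.53 ± 0.17 with a 95% interval of 1.15 to 1.91 (limma adjusted p = 0.0269). Controls 1 and 3 read 3064 and 2365, between the treated groups, and DCAA against corn oil did not pass for Dusp1 (0.76 ± 0.19, limma adjusted p = 0.186). The Dusp1 call against DCAC was lost with all 9 arrays, a common median, no filter, no trend or blocking on 3'/5' ratio class, and without any single DCAC array, DCAA 1 or DCAA 2. Its difference stayed between 1.34 and 1.74 in these and the other alternatives.

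The 16 genes called against corn oil were not shown to differ between the compounds. By the brightest probe set called for each, their DCAA minus DCAC log2 differences lay between -0.61 and 0.81, with limma adjusted p-values of 0.403 to 0.975. Saa2 read 28330, 42795 and 42782 with DCAC, a difference of -0.61 with an interval of -1.72 to 0.50. For Mt2 the difference was -0.03 (-0.58 to 0.51), and for Nnmt it was 0.06 (-0.37 to 0.48). The dimmer Mt1 probe set, outside that range, read 1243, 652 and 758 with DCAC, below all DCAA mice, a difference of 1.39 (0.78 to 1.99, limma adjusted p = 0.403). Angptl4 read 1304, 2299 and 1649 with DCAC, below all DCAA mice, a difference of 0.81 (0.40 to 1.23) that did not pass. Depp1 differed by 0.72 (0.14 to 1.30) and Slc16a1 by -0.55 (-0.85 to -0.24). Because both compounds were compared with the same 2 corn oil arrays, their changes against corn oil are not independent.

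**Figure D4:**
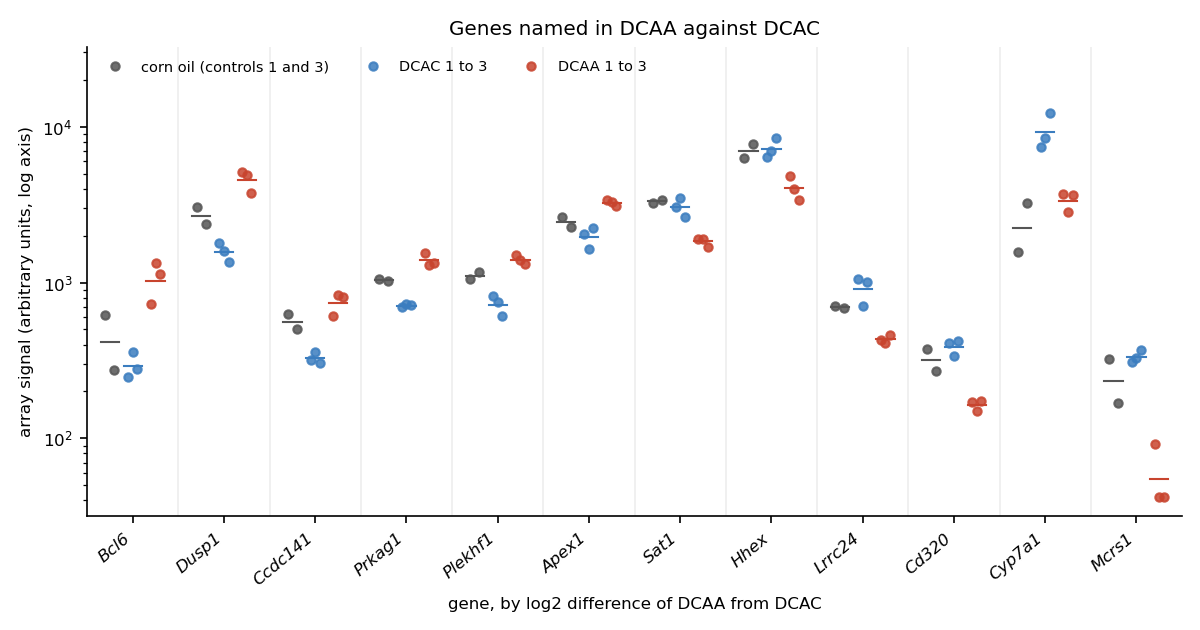
Signal of the 12 genes named between DCAA and DCAC on each array, on a log axis in arbitrary units, with geometric means as bars. DCAA and DCAC points of each gene do not overlap, and Dusp1 is the gene that passed the threshold.

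The other genes named between the compounds did not pass. Cyp7a1, which catalyses the first step from cholesterol to bile acids, read 3674, 2821 and 3657 with DCAA, 7461, 8507 and 12225 with DCAC and 1560 and 3225 with corn oil. Its difference was -1.45 ± 0.25 (limma adjusted p = 0.285). Bcl6 read 724, 1333 and 1131 with DCAA and 248, 357 and 280 with DCAC, a difference of 1.82 ± 0.32 (limma adjusted p = 0.285). The energy sensor subunit Prkag1, Plekhf1 of endosomes, Ccdc141 and the DNA repair enzyme Apex1 had differences of 0.96, 0.96, 1.19 and 0.73. Lower with DCAA than with DCAC on every array were also Mcrs1, Lrrc24, Cd320, the hepatic transcription factor Hhex and Sat1, at -2.21, -1.07, -1.24, -0.84 and -0.72. Of all genes, 7.09% were higher and 7.22% lower with DCAA on every array.

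The calls against corn oil rest on few mice. Without DCAA 1, 87 probe sets passed (44 higher and 43 lower), without DCAA 2, 5, and without DCAA 3, 3; without control 1, 7, and without control 3, 4. Without DCAC 3, which enters through the shared estimate of spread, 36 passed. With control 2 put back, 0 of 25146 probe sets passed (3025 at an unadjusted p under 0.05), and blocking on 3'/5' ratio class 0 passed (1491 at an unadjusted p under 0.05). Control 2 read 163 for Saa1, 277 for Saa2, 153 for Lcn2, 34.4 for Orm2, 51.9 for Lrg1 and 16.7 for Apcs. All were below controls 1 and 3, so adding control 2 could not turn the direction of these probe sets. With control 2 and with the ratio class block, all 20 probe sets kept their direction. Blocking on 3'/5' ratio class, their median absolute log2 change was 1.66 beside 1.61 here, and their median SE was 0.36 beside 0.22. Since that block rests on DCAC 3 against DCAC 1 and 2, it does not separate DCAA from the ratio. That block also turned the sign of Fasn (0.15), Odc1 (0.23) and Hpd (-0.021). Quantile normalization, a common median and no floor on low signals left 15, 9 and 16 calls, and in each 100% of the calls were higher with DCAA, beside 85% here.

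**Figure D5:**
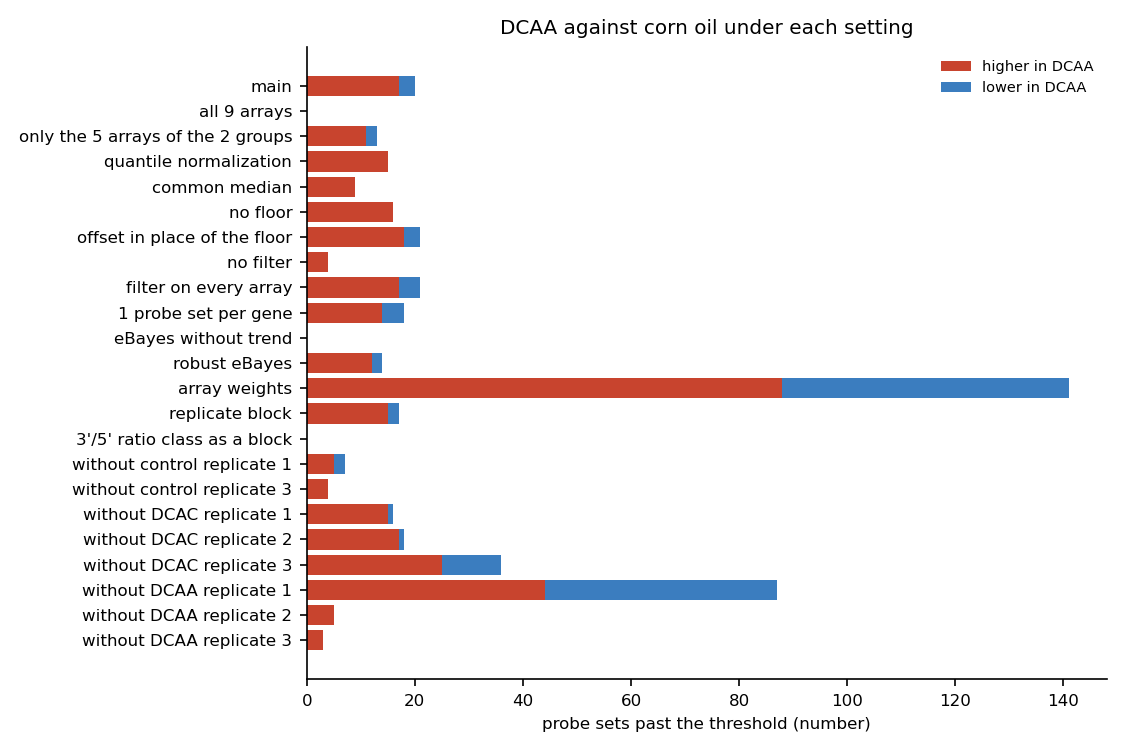
Number of probe sets past the threshold in DCAA against corn oil, under the main setting and 22 alternatives, as bars from 0 split into higher and lower. Counts run from 0 to 141, the highest with array weights.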

How the data were processed

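The study measured liver RNA of 9 mice, 3 per group, with 1 Affymetrix array per mouse. Per the labels' protocols, total RNA was copied with an oligo-dT primer and transcribed in vitro into biotinylated RNA. Per the submitters' processing notes, the authors used the GCOS software for the deposited intensity values; its version is not given in the sources used here. The deposited intensities are linear, and each array has a trimmed mean (2% at either end) of 500. No column was identical to another, and with no read depth on arrays, precision depends on the number of mice.

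From these values, signals under each array's 25th percentile were raised to it and log2 was taken. The manufacturer's 64 control probe sets were left out. A probe set was kept where it exceeded the median of at least 3 of 8 arrays, and the brightest kept probe set stands for a gene. Comparisons used limma 3.58.1 under R 4.3.3 (lmFit, eBayes with trend; 3 groups in 1 model; Benjamini-Hochberg over all kept probe sets; calls under 0.05). The functions were tested on simulated data. Errors are SE, and the median 95% interval reached 1.56-fold. Of probe sets, 34945 carry 1 symbol, 932 several and 9160 none. The labels do not say whether mice shared cages or litters.

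Named genes are up to 15 per direction, past the threshold first and then by p among genes of at least 1.5-fold whose groups do not overlap. Up to 6 per direction are named against DCAC, up to 4 members per list, and Gstz1, the Pdk genes, Cyp2e1, Saa3 and Saa4 always. Further list members were named after their values were seen. The comparison, the omission of control 2 and the 52 gene lists were chosen with earlier results of these data known. Promoters are RefSeq windows of GRCm38.p6. Alternatives covered the arrays used, scaling, floor, filter, variance model, blocks and leaving out each array.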

Additional observations from a re-analysis of the deposited data

Results flagged for a closer look

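The library labelled control 2, which was left out of the main comparison, carried strong signals of kidney tubule genes. The 13 kidney tubule markers with a probe set summed to 135501 on it, and to 1851 to 3282 on the other 8 arrays, and each of the 13 was higher there than on any other array. Dusp1 differed between the compounds: its log2 signal was 1.53 higher with DCAA than with DCAC (limma adjusted p = 0.0269), with all 3 DCAA mice above all 3 DCAC mice. Dusp1 no longer passed with all 9 arrays, a common median, no filter, no trend or blocking on 3'/5' ratio class, nor without any single DCAC array, DCAA 1 or DCAA 2; its log2 difference lay between 1.34 and 1.74 over the alternatives and its limma adjusted p between 0.00573 and 0.851.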

How the results depend on the processing

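Over 22 alternatives, all 15 called genes that were followed by their brightest probe set kept their direction, and 0 passed in every one. For genes whose groups do not overlap, leaving out an array could not turn the direction. The fit without trend leaves the estimates themselves unchanged. Kept directions are therefore no test in those alternatives. With all 9 arrays they are no test for Saa1, Saa2, Lcn2, Orm2, Lrg1 and Apcs, which control 2 read below controls 1 and 3. Of 145 genes followed, 114 kept their sign in every alternative, and 12 of 45 list medians did. Against 20 probe sets, 0 passed with all 9 arrays, without trend and blocking on 3'/5' ratio class, 13 with 5 arrays, 9 with a common median, 4 without a filter and 141 with array weights (88 higher and 53 lower). Leaving out 1 array gave 3 to 87 calls. For DCAA against DCAC, 1 call became 0 with all 9 arrays, a common median, no filter or no trend, 3 with the ratio class block, and 0 to 2 without 1 array (0 without any single DCAC array or DCAA 2). A common median shifted all probe sets by -0.12. The cause of these changes was not tested.

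Signs turned with all 9 arrays for Angptl8 (0.44), Ces2a (2.06), Fasn (0.48), Gsta3 (0.25), Gstz1 (0.28), Hamp (2.07), Ier3 (-0.60), Igtp (0.018), Lipa (0.022), Ngp (0.20), Pdk2 (-0.049), Plin5 (0.51), Ppargc1a (-0.032) and Slc30a10 (0.43). Quantile normalization turned Apoa1 (-0.015), Ces1c (-0.070) and Igfbp4 (-0.064). The ratio class block turned A2m (0.15), Apoc1 (-0.016), Cyp7a1 (-0.035), Dbp (-0.27), Fasn (0.15), Gadd45g (-1.42), Hpd (-0.021), Ier3 (-0.27), Igfbp4 (-0.038), Manf (0.42), Ngp (0.013), Odc1 (0.23), Psma1 (0.11), Psmb6 (-0.073) and Stat3 (-0.32). Pdk1 turned with a common median (-0.072), without control 3 (-0.25) and without DCAA 1 (-0.17), and Gstz1 without DCAA 3 (0.012); leaving out 1 array, Pdk1 lay between -0.25 and 0.34 and Gstz1 between -0.38 and 0.012. Leaving out 1 array also turned Klrk1 (-0.13 to 1.10), Ngp (-0.41 to 0.18) and Prf1 (-0.099 to 0.47), and the replicate block turned Ngp (0.086). Pairing of mice by replicate number was not seen: deviations of same-numbered arrays correlated at -0.041 to 0.027, others at -0.066 to 0.074. Deviations from the means of groups of 2 or 3 arrays are not independent, so these values cannot exclude pairing. With the replicate block 17 probe sets passed.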

Other observations

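Endoplasmic reticulum and immediate early genes held a few further values that no comparison above described. Of 30 heat shock and chaperone genes tested, 0 were called, and Manf, a secreted protein of the endoplasmic reticulum stress response, read 9443 and 7295 with corn oil and 4669, 5886 and 4634 with DCAA. Ddit3, the stress transcription factor CHOP, read 290 and 239 against 520, 482 and 363. Of 26 immediate early and dual-specificity phosphatase genes, 0 were called, and the median log2 change was 0.19. Dusp6, which inactivates ERK kinases, read 1044 and 985 with corn oil and 1344, 2182 and 1784 with DCAA (log2 change 0.78 ± 0.20, limma adjusted p = 0.193). Sgk1, a kinase induced by glucocorticoids, read 825 on control 1 and 2961 on control 3, and 443 to 561 with DCAA.

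Oxidative phosphorylation, with 62 genes tested, had a median log2 change of 0.08, which was -0.04 with a common median, and 0 were called. Of the 62, 23 lay above and 9 below corn oil on every DCAA array, beside 17.1% and 15.5% of all genes. The 9 urea cycle genes tested had a median of 0.03. None was above or below corn oil on every DCAA array, beside 17.1% and 15.5% of all genes.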
